A study of Homo sapiens with 4 samples.

Results

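Histone genes were followed in RNA sequencing of T24 cells, a line established from a human bladder carcinoma. A gene was taken as a histone gene where its deposited name began with HIST1H to HIST4H, had the newer form of a core or linker histone name, or was H2AFX, H2AFZ, H2AFY, H2AFY2, H2AFV, H2AFJ, H3F3A, H3F3B, H1F0 or H1FX. This gave 99 of the 60623 genes in the deposited table. Of these, 70 were replication-dependent histone genes (6 of family H1, 17 of H2A, 18 of H2B, 14 of H3 and 15 of H4), 10 were variant histone genes (2 of H1, 6 of H2A and 2 of H3) and 19 were pseudogenes. The 10 genes listed singly were classed as variant, and genes annotated or named as pseudogenes as such. All others were classed as replication-dependent by name, and whether each is transcribed in S phase was not tested. The study asked how CBX7, a reader protein of Polycomb repressive complex PRC1, acts in bladder cancer cells, and sequenced 2 libraries of control T24 cells and 2 libraries of T24 cells that overexpressed CBX7. Per the study's methods the full-length CBX7 was cloned into a pCDH-3xFLAG vector. The labels name the control libraries only CON, and both groups were grown in RPMI medium with 10% FCS. No other cell line, construct or time point was sequenced, and the sources used here do not say whether the replicates were separate cultures, so p-values measure only the spread between these libraries, which may be technical.

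Histones package DNA into nucleosomes, each built of the core histones H2A, H2B, H3 and H4, with H1 on the linker DNA. The replication-dependent genes lie in clusters, have no introns, are transcribed in S phase and make mRNAs that usually end in a conserved stem-loop in place of a poly(A) tail. The variant genes mostly contain introns, are transcribed throughout the cell cycle and make polyadenylated mRNAs whose proteins replace core or linker histones outside replication or at particular sites.

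The estimated counts, which need not be whole because reads can be divided among genes, summed to between 20800910 and 25135488 per library. CBX7 itself had 4.98 and 3.73 TPM (a relative level per transcript length) in control replicates 1 and 2 and 610.1 and 607.2 TPM in CBX7 replicates 1 and 2, with a log2 fold change of 7.35 (SE 0.18, adjusted p = 0.000584, edgeR's quasi-likelihood test). Of 6 epithelial genes, KRT7, KRT8 and KRT18 lay between 853 and 1465 TPM in every library, KRT19 between 6.64 and 17.3 TPM and EPCAM between 0.58 and 1.78 TPM, and CDH1, the gene of E-cadherin, had at most 2 counts. Of the 2 mesenchymal genes, VIM, which encodes the filament vimentin, had 2757 and 2726 TPM in control cells and 2206 and 2228 TPM in CBX7 cells, overlapping in CPM, and CDH2 had 50.15 and 56.5 TPM against 34.1 and 52.8 TPM. Of 7 urothelial genes, UPK1A, UPK1B, UPK2, UPK3A and KRT20 had at most 3 counts in any library, while PPARG and GATA3 had enough for a test. Of 6 markers of other cells, PTPRC, PECAM1 and ALB had at most 4 counts, and CD68, COL1A1 and COL3A1 were tested. The summed level of these 6 was 12.7 and 10.9 TPM in control cells and 7.31 and 11.7 TPM in CBX7 cells. Among all these markers no adjusted p lay under 0.05 in edgeR. An unadjusted p under 0.05 in edgeR, which 4.74% of all genes had, was seen for KRT19 (log2 fold change 1.35), GATA3 (2.28), COL1A1 (0.71) and CD68 (-0.60). GATA3 had 3 and 4 counts in control cells and 14 and 22 in CBX7 cells. In TPM the groups overlapped for GATA3 and COL1A1. After the correction for gene length described next, VIM (-0.25) and KRT18 (0.16) also had one, where 6.80% of all genes did. The part of these markers in the histone values was not tested. CBX7 replicate 1 stood apart in its trend with gene length. Genes shorter than 1000 bases lay at a median of 0.35 above the mean of the libraries in it on the log2 scale and at -0.05, -0.13 and -0.15 in control replicate 1, control replicate 2 and CBX7 replicate 2. For the tested histone genes the same trend amounted to a median of 0.27 in CBX7 replicate 1 and to -0.03, -0.11 and -0.12 in the others, so comparisons between the groups are also given after a correction for gene length or without that library.

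The histone stem-loop, the 16-base hairpin bound by the stem-loop binding protein SLBP, was searched on the sense strand of the transcript models in GENCODE release 29 on GRCh38. Of 58676 genes with a model, 74 (0.126%) held a match, and 36 of these were histone genes of the rule. The matches among them took 7 distinct forms, of which the most frequent was shared by 18 genes. H2AFX was the only one of the 10 variant genes with a match. Its RNA is known to occur both with a stem-loop end and with a poly(A) tail. The following sites, read from the transcript models 5′ to 3′, are those of H2AFX and of the replication-dependent genes described below whose model holds one, with the 16 bases of the stem-loop in capitals.
H2AFX (chr11:119094898-119094913, minus strand): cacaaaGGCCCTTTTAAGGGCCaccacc
HIST2H4A (chr1:149833032-149833047, plus strand): cccaaaGGCCCTTTTTAGGGCCgaccac
HIST2H4B (chr1:149860769-149860784, minus strand): cccaaaGGCCCTTTTTAGGGCCgaccac
HIST1H4J (chr6:27824459-27824474, plus strand): ataaaaGGCCCTTTTCAGGGCCacccta
HIST1H4H (chr6:26285131-26285146, minus strand): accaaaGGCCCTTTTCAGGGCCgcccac
HIST2H2AA3 (chr1:149842223-149842238, minus strand): tcaaaaGGCTCTTTTCAGAGCCacccac
HIST2H2AA4 (chr1:149851574-149851589, plus strand): tcaaaaGGCTCTTTTCAGAGCCacccac
HIST3H2A (chr1:228457369-228457384, minus strand): cataaaGGCTCTTTTCAGAGCCacctac
HIST1H2AC (chr6:26124669-26124684, plus strand): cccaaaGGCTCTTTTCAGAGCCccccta
HIST1H2BD (chr6:26158587-26158602, plus strand): cccaaaGGCTCTTTTAAGAGCCacgcat
HIST1H2BC (chr6:26123472-26123487, minus strand): cccaaaGGCTCTTTTAAGAGCCacccag
HIST1H3H (chr6:27810516-27810531, plus strand): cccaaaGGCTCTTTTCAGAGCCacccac
HIST2H3A (chr1:149853105-149853120, plus strand): ccaaaaGGCTCTTTTCAGAGCCacccac
HIST2H3C (chr1:149840692-149840707, minus strand): ccaaaaGGCTCTTTTCAGAGCCacccac
Among these sites, the H4 genes and H2AFX shared a stem that opens with ggccc, and the H2A, H2B and H3 genes one that opens with ggctc. HIST2H4A and HIST2H4B were alike in all letters shown, and so were HIST2H2AA3 and HIST2H2AA4, and HIST2H3A and HIST2H3C. In the 1614-base model of H2AFX the stem-loop began at base 555 and was followed by 1044 bases. A match describes the sequence and does not show how the RNA of these cells ended.

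The variant histone genes made up nearly all histone RNA that the libraries held, and the many replication-dependent genes almost none. Replication-dependent mRNAs usually lack a poly(A) tail, and whether poly(A) RNA was selected is not given in the sources used here. The sums therefore describe the libraries rather than the cells, and the part of RNA selection in them was not tested. The 10 variant genes summed to 4558 and 4477 TPM in control replicates 1 and 2 and to 4910 and 4619 TPM in CBX7 replicates 1 and 2. The summed level of the 70 replication-dependent genes was 87.0 and 87.15 TPM in control cells and 92.1 and 84.9 TPM in CBX7 cells. The variant sum was thus 52.4 and 51.4 times the replication-dependent sum in control cells and 53.3 and 54.4 times in CBX7 cells. All 4 libraries gave nearly the same ratio, and although the CBX7 values were both the higher, the gap between the groups was about as wide as the gaps within them. The deposited TPM values use a shortened length for short genes: count and TPM jointly implied a median of 0.603 to 0.651 of the deposited length for genes of 300 to 500 bases, which raises short replication-dependent genes on this scale. In estimated counts divided by the deposited length, the ratio was 99.5 and 100.8 in control cells against 101.0 and 103.8 in CBX7 cells.

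**Figure D1:**
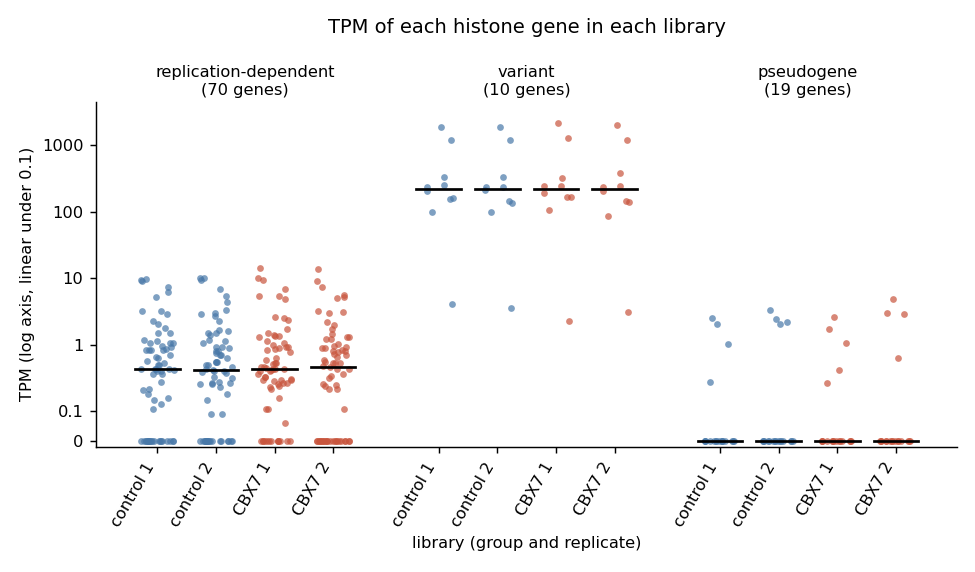
TPM of every histone gene in each of the 4 libraries (log axis, linear under 0.1), with 1 point per gene, a black bar at the median, control libraries in blue and CBX7 libraries in red. The medians of the variant genes lie between 218 and 223 TPM and those of the replication-dependent genes between 0.425 and 0.47 TPM, and 14 of 19 pseudogenes are at 0 in every library.

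Single genes were separated in the same way. The mean TPM over the 4 libraries ranged from 3.28 to 1990 for the variant genes (median 222.5) and from 0 to 11.7 for the replication-dependent genes (median 0.509). Of the variant genes, 9 lay above the highest replication-dependent gene, and so did 7534 genes of the whole table. All 10 variant genes had at least 10 counts in every library, as had 15 of the 70 replication-dependent genes. Of the replication-dependent genes, 8 were at 0 in every library and another 24 had at most 10 counts over all libraries together. A count of 0 in a library allows up to 3 counts, or 0.119 to 0.144 CPM (counts scaled to the library total), and that limit covers counting error only.

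H3F3B and H3F3A encode the same replacement H3 protein, which is placed in chromatin outside S phase. H3F3B (chr17:75776434-75785893) had the highest level of any histone gene, at 1905 and 1873 TPM in control cells and 2195 and 1985 TPM in CBX7 cells, and stood at rank 91 of all genes by mean TPM. H3F3A (chr1:226061851-226072001) had 235 and 239 TPM in control cells and 248 and 239 TPM in CBX7 cells. The H3F3B level was 7.83 to 8.86 times that of H3F3A, and the ranges of the genes were far apart.

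H2AFZ and H2AFV encode the H2A.Z proteins, which mark promoters and enhancers. H2AFZ (chr4:99948086-99950388) had 1207 and 1197 TPM in control cells and 1273 and 1178 TPM in CBX7 cells and was the next highest variant gene, at rank 140. H2AFV (chr7:44826791-44848083) had 249 and 234 TPM in control cells and 242 and 244 TPM in CBX7 cells. H2AFZ thus lay 4.82 to 5.25 times above H2AFV, while the range of H2AFV overlapped that of H3F3A, its neighbour in the order of levels.

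H2AFY and H2AFY2 encode macroH2A proteins, which carry a large extra domain and are linked to silent chromatin. H2AFY (chr5:135333900-135399914) had 208 and 212 TPM in control cells and 193 and 206 TPM in CBX7 cells. H2AFY2 (chr10:70052796-70112280) was by far the lowest variant gene, at 4.10 and 3.63 TPM in control cells and 2.29 and 3.11 TPM in CBX7 cells. The ratio of these genes was 50.7 and 58.3 in control cells against 84.5 and 66.4 in CBX7 cells, so the groups did not overlap.

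H2AFX (chr11:119093854-119095467) encodes the H2A variant that is phosphorylated at DNA breaks. Its level was 155 and 146 TPM in control cells and 166 and 147 TPM in CBX7 cells. H2AFJ (chr12:14774383-14778002), an H2A variant known to accumulate in senescent cells, had 162 and 136 TPM in control cells and 164 and 141 TPM in CBX7 cells. These ranges overlapped, with the replicate 1 library above the replicate 2 library in each group for both genes.

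Both variant linker histones were well measured. H1F0 (chr22:37805093-37807436), which encodes a linker histone that builds up in non-dividing cells, had 334 and 338 TPM in control cells and 319.5 and 388 TPM in CBX7 cells. H1FX (chr3:129314771-129316277), which encodes the linker histone H1X, had 98.7 and 99.0 TPM in control cells and 106 and 86.7 TPM in CBX7 cells. For each gene the CBX7 libraries lay on both sides of the control libraries. In the full order of levels (H3F3B, H2AFZ, H1F0, H2AFV, H3F3A, H2AFY, H2AFX, H2AFJ, H1FX, H2AFY2), the only neighbours with overlapping ranges over the 4 libraries were H2AFV with H3F3A and H2AFX with H2AFJ.

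The replication-dependent genes lie in 4 clusters, and most of their signal came from few of them. The HIST1 cluster on chromosome 6 holds 55 of the genes, of which 48 were detected, and gave 61.7% of the replication-dependent TPM. The HIST2 cluster on chromosome 1 holds 11, all detected, and gave 31.3%. The 3 HIST3 genes, also on chromosome 1, and the single HIST4 gene on chromosome 12 gave 6.05% and 0.988%. The 10 genes with the highest mean TPM, each at 1.80 TPM or more, held 66.6% of the sum.

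By family, the replication-dependent sums were low throughout, and the order of the groups depended on the scale. The sum over H1 genes was 5.60 and 9.03 TPM in control cells and 7.59 and 7.16 TPM in CBX7 cells. The sum over H2A genes was 28.0 and 28.55 TPM in control cells and 25.7 and 25.0 TPM in CBX7 cells, and the sum over H4 genes was 23.2 and 22.45 TPM against 19.4 and 21.4 TPM. Both were lower in the CBX7 libraries without overlap on the TPM scale, with log2 ratios of the means of -0.16 and -0.16. On the CPM scale the H2A sums overlapped (log2 ratio -0.0046), and the H4 sums were higher in the CBX7 libraries, at 6.79 and 6.94 against 6.41 and 6.57 CPM in control cells. The sum over H3 genes, 8.92 and 6.36 TPM in control cells and 8.09 and 5.01 TPM in CBX7 cells, followed the replicate number more than the group. The sum over H2B genes was 21.3 and 20.8 TPM in control cells and 31.3 and 26.3 TPM in CBX7 cells, a log2 ratio of the means of 0.45. Of this, the single gene HIST1H2BK had a mean of 9.30 TPM in control cells and 14.1 TPM in CBX7 cells, from 19 to 44 counts. In CPM the H2B sums were 7.92 and 7.19 in control cells against 10.7 and 7.12 in CBX7 cells, and the groups overlapped.

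**Figure D2:**
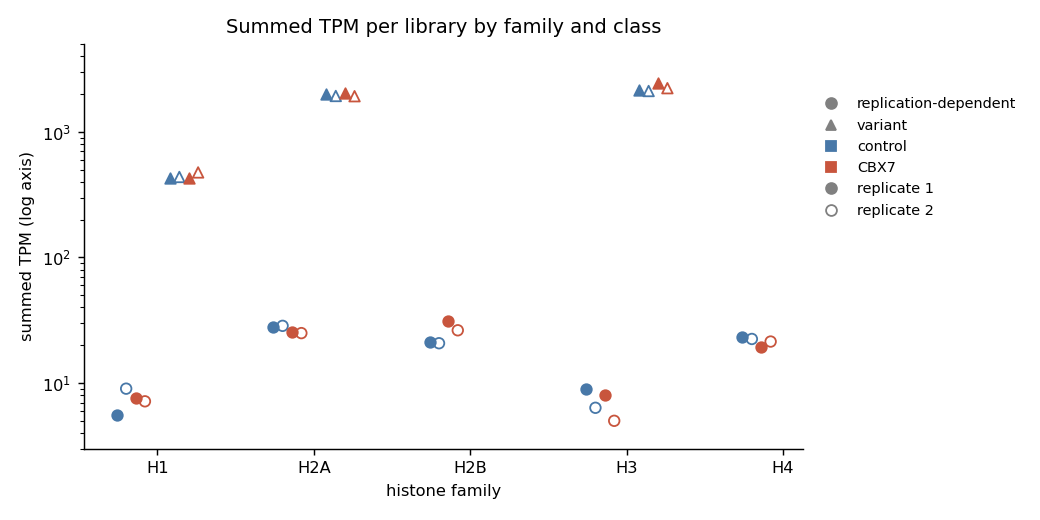
Summed TPM per library (log axis) of the replication-dependent genes (circles) and variant genes (triangles) of each histone family, in control (blue) and CBX7 (red) libraries, with replicate 1 filled and replicate 2 open. Variant sums lie between 425 and 2443 TPM and replication-dependent sums between 5.01 and 31.3 TPM, and families H2B and H4 have no variant gene under the rule.

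Within a family, the excess of variant over replication-dependent RNA was largest for H3. The ratio of the summed TPM was 240.0 and 332 in control cells against 302 and 444 in CBX7 cells for H3, 70.9 and 67.5 against 79.35 and 76.8 for H2A, and 77.2 and 48.4 against 56.0 and 66.4 for H1. The H2A ratios were higher in both CBX7 libraries, and the H1 and H3 ratios overlapped between the groups.

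The 3 replication-dependent genes of highest mean TPM came from families H2B, H2A and H4. HIST1H2BK (chr6:27146418-27146798), an H2B gene, was the highest, with 9.24 and 9.36 TPM in control cells and 14.3 and 13.9 TPM in CBX7 cells. HIST2H2AA3 (chr1:149842188-149842736), an H2A gene, had 9.46 and 10.2 TPM in control cells and 9.98 and 8.96 TPM in CBX7 cells. HIST2H4A (chr1:149832659-149839767), an H4 gene, had 9.93 and 9.95 TPM in control cells and 9.40 and 7.43 TPM in CBX7 cells. In TPM, HIST1H2BK had both CBX7 libraries above both control libraries and HIST2H4A both below, while HIST2H2AA3 overlapped. In mean counts the order was reversed, at 28.25 for HIST1H2BK, 52.39 for HIST2H2AA3 and 87.56 for HIST2H4A.

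Other H2A and H2B genes followed at lower levels. HIST3H2A had 6.18 and 4.43 TPM in control cells and 4.86 and 5.27 TPM in CBX7 cells. HIST1H2AC, whose 1668-base model collected 71 to 76 counts per library, had 2.87 and 3.32 TPM in control cells and 2.50 and 3.08 TPM in CBX7 cells. HIST1H2BD had 3.27 and 2.95 TPM in control cells and 5.42 and 3.27 TPM in CBX7 cells. The groups overlapped for the H2A genes, and HIST1H2BD was high only in CBX7 replicate 1.

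Of the linker genes HIST1H1C alone came near the level of HIST3H2A, and the H3 genes were lower than the H2A and H2B genes above. HIST1H1C had 3.22 and 6.85 TPM in control cells and 5.40 and 5.01 TPM in CBX7 cells, from 23 to 48 counts. HIST1H1B and HIST1H1E, further linker histone genes, had 0.71 to 1.52 and 0.85 to 1.14 TPM. The H3 genes HIST2H3D, HIST1H3H and HIST1H3F had 0.71 to 1.75, 0.43 to 0.94 and 0 to 1.35 TPM, and HIST1H3F and HIST2H3D had no more than 6.5 counts in any library. HIST1H3B, which no GENCODE model matched and the rule for named genes therefore passed over, stood next to HIST2H3D in mean TPM, with 1.53 and 0.76 TPM in control cells and 1.37 and 0.97 TPM in CBX7 cells, from 3 to 8 counts. None of these ranges separated the groups in TPM except those of HIST1H3H and HIST1H3F, with both CBX7 libraries the higher.

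For the H4 genes HIST1H4J and HIST1H4H, the deposited TPM and counts were higher in the same replicate of each group, but by different factors. HIST1H4J had 7.49 and 5.50 TPM in control cells and 6.89 and 5.59 TPM in CBX7 cells, from 10.5 to 20 counts on a 373-base model. HIST1H4H had 11 and 4 counts in control cells and 5 and 12 counts in CBX7 cells, but 2.30 and 0.26 TPM in control cells and 0.22 and 3.02 TPM in CBX7 cells. Its TPM thus spread over a wider range than its counts, and each group held a high and a low library.

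Counts on replication-dependent genes were found mostly where the annotated transcript reaches beyond the stem-loop. The longest-reaching GENCODE model ran more than 100 bases past the stem-loop for 23 of the 70 genes, ended within 100 bases of it for 9 and did not hold it for 36, and 2 genes (HIST1H3B and HIST1H3C) had no model matched by identifier. The median of the mean counts was 13.0 for genes whose model ran past it, 5.75 for genes whose model ended at it and 0.969 for genes without it in the model. All 23 genes of the first kind were detected, and 17 of them had enough counts for a test, against 4 of 9 and 2 of 36. These models also differ in length, with medians of 1487, 503 and 393 bases, and per length the medians were 0.583, 1.23 and 0.364 TPM. In 30 genes the model consisted of coding sequence only, which includes HIST1H2BK, the highest replication-dependent gene in TPM though not in counts, and HIST1H1C. The part that model length plays in these counts was not tested.

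**Figure D3:**
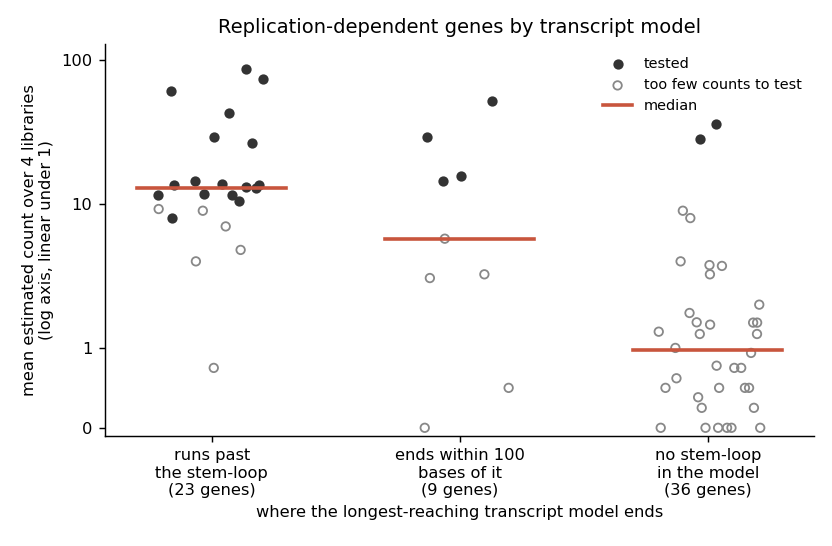
Mean estimated count over the 4 libraries (log axis, linear under 1) of the replication-dependent genes, grouped by where the longest-reaching transcript model ends, with filled points for genes tested and red bars at the medians. The medians are 13.0, 5.75 and 0.969 counts, and 34 of the 36 genes without a stem-loop in the model had too few counts for a test.

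No histone gene differed between CBX7-overexpressing and control cells past the threshold, and most changes were small in relation to their errors. After removal of genes with few counts, 36 histone genes remained among 14862 genes tested, of which 23 were replication-dependent, 10 variant and 3 pseudogenes. By edgeR's quasi-likelihood test with p-values adjusted after Benjamini and Hochberg, none of the 36 lay under 0.05 (lowest adjusted p = 0.951), where 0.0202% of all genes did. At an unadjusted p under 0.05 there were again 0 of 36, against 4.74% of all genes. After the correction for gene length there was 1 (HIST2H2AA4, log2 fold change -1.42), against 6.80% of all genes, under the replicate block 2, against 10.2%, and with both 3, against 11.8%. In limma there were 2 on either TPM scale, against 3.61% and 3.53% of all genes. At an adjusted p under 0.05, DESeq2's Wald test called 0 of them as well, where it called 67 of all 14862 genes. Limma called 0 of them on log2(TPM + 1) and log2(TPM + 0.1), where it called 2 and 3 of all 14862 genes. HIST2H4B was the 1 gene called by edgeR when genes with few counts were kept and under a replicate block (adjusted p = 0.0306 and 0.0369), where 1.01% and 2.43% of all genes were called. Without CBX7 replicate 2 edgeR called 9 of 40 histone genes, against 35.5% of all genes, and without control replicate 1 it called 1 of 40 (HIST2H4B), against 0.384%. Without either of the others it called 0, against 0.291% and 2.59% of all genes for control replicate 2 and CBX7 replicate 1. Groups that did not overlap, with CBX7 the higher, were seen in 5 of the 36 genes (3 replication-dependent and 2 variant), where the share of all genes was 15.4%. In 4 of them (3 replication-dependent and 1 variant) CBX7 was the lower, where the share of all genes was 14.8%. The smallest p that exact permutation (two-sided) allows for any gene here is 0.333.

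**Figure D4:**
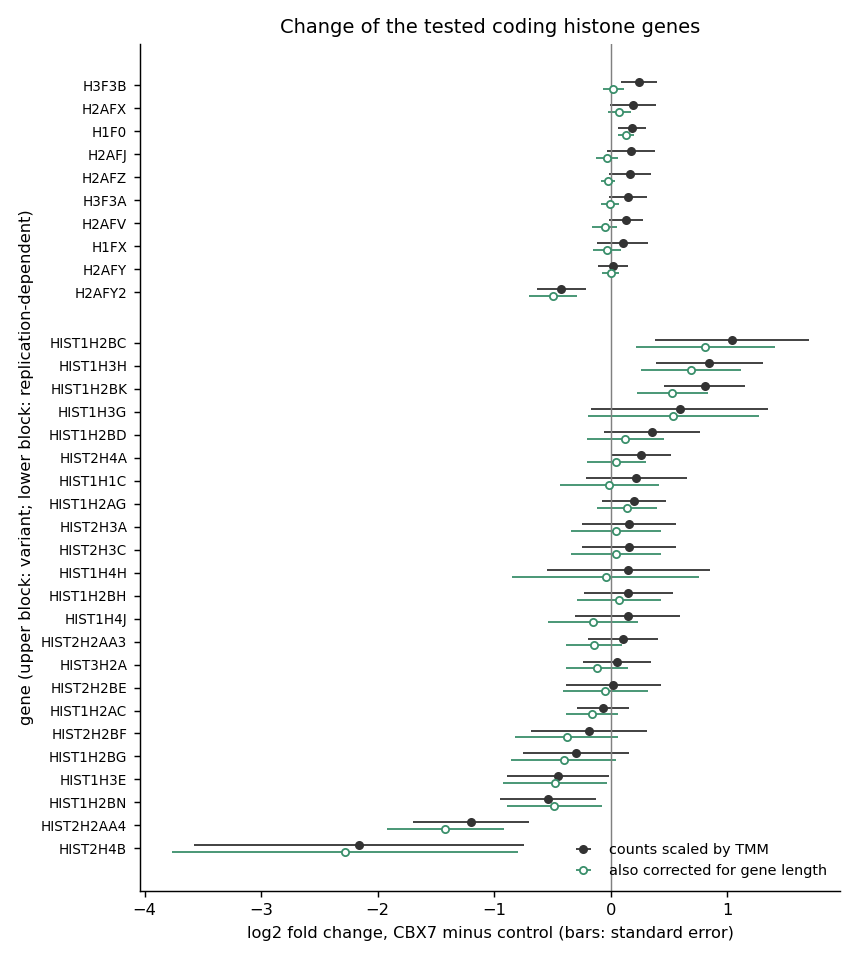
Log2 fold change (CBX7 minus control) of the 33 tested coding histone genes with bars of 1 standard error, as measured (filled) and after a correction for gene length (open), with variant genes in the upper block and replication-dependent genes in the lower. Measured values run from -0.43 to 0.24 for variant genes and from -2.16 to 1.04 for replication-dependent genes, and most open points lie to the left of the filled ones.

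Among the variant genes, 9 of 10 had a log2 fold change above 0, but the excess was seen mainly in CBX7 replicate 1. The share above 0 over all genes was 50.3%. Compared within replicate number, 9 of the 10 variant genes were higher with CBX7 in replicate 1 and 4 of 10 in replicate 2. After the correction for gene length, 3 of 10 were above 0. All 10 had a 95% interval that lay inside a 2-fold change in either direction, and the intervals together ran from -0.95 to 0.695 on the log2 scale.

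H3F3B had the largest value above 0. Its TMM-normalized level was 1351 and 1322 CPM in control cells and 1753 and 1398 CPM in CBX7 cells, without overlap of the groups. The log2 fold change was 0.24 (SE 0.15, 95% interval -0.14 to 0.62, adjusted p = 0.951, edgeR), and 0.02 after the length correction. H1F0 was the other variant gene with both CBX7 libraries the higher, at 551 and 532 CPM in control cells and 624 and 604 CPM in CBX7 cells. It had a log2 fold change of 0.18 (SE 0.12, 95% interval -0.12 to 0.48, adjusted p = 0.951, edgeR), with similar values of 0.18 within replicate 1 and 0.18 within replicate 2, and 0.13 after the length correction. On the TPM scale, however, its groups overlapped.

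H2AFY2 was the variant gene with both CBX7 libraries the lower. It had 5.45 and 4.62 CPM in control cells and 3.60 and 3.89 CPM in CBX7 cells, from 87 to 130 counts. The log2 fold change was -0.43 (SE 0.21, 95% interval -0.95 to 0.10, unadjusted p = 0.0922 and adjusted p = 0.951, edgeR), and -0.50 after the length correction. Its model overlaps AIFM2 on the opposite strand, and the sources used here do not state a strand-specific count.

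The other 7 variant genes had overlapping groups and values that turned with the library or the correction. Their log2 fold changes were 0.02 for H2AFY, 0.10 for H1FX, 0.13 for H2AFV, 0.15 for H3F3A, 0.16 for H2AFZ, 0.17 for H2AFJ and 0.19 for H2AFX, with standard errors of 0.13 to 0.22. After the length correction 6 of them lay between -0.055 and -0.0023, and H2AFX at 0.07. Without CBX7 replicate 1 all 7 had a value below 0 except H2AFV. Without CBX7 replicate 2, 7 of the 10 variant genes passed an adjusted p of 0.05 in edgeR with log2 fold changes of 0.25 to 0.42, where 5491 of 15452 genes (35.5%) passed it, with the lone CBX7 library assumed to vary like the control libraries.

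The replication-dependent genes spread more widely around 0, with fewer counts behind each value. Of the 23 tested, 16 had a log2 fold change above 0, and 10 after the length correction. Within replicate number, 16 of 23 were higher with CBX7 in replicate 1 and 9 of 23 in replicate 2. Only 5 of the 23 had a 95% interval inside a 2-fold change in either direction, and the intervals of the others reached past it on at least 1 side.

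HIST1H2BK, the highest of the replication-dependent genes in TPM though not in counts, was among those with both CBX7 libraries the higher. It had 21 and 19 counts in control cells and 44 and 29 counts in CBX7 cells, or 0.88 and 0.91 against 1.82 and 1.30 CPM. The log2 fold change was 0.81 (SE 0.35, 95% interval -0.06 to 1.67, unadjusted p = 0.0618 and adjusted p = 0.951, edgeR), and 0.53 (SE 0.31) after the length correction. HIST1H3H had 8 and 10 counts in control cells and 21 and 13 in CBX7 cells, with a log2 fold change of 0.84 (SE 0.46, adjusted p = 0.951, edgeR). HIST1H2BC had 12 and 3 counts in control cells and 21 and 11 in CBX7 cells, with a log2 fold change of 1.04 (SE 0.66, adjusted p = 0.951, edgeR). The control libraries of HIST1H2BC lay far apart, and the groups overlapped.

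The other tested H1, H2A, H2B and H4 genes among the highest of their families had changes no larger than their standard errors. The log2 fold change was 0.22 (SE 0.44) for HIST1H1C, 0.10 (SE 0.30) for HIST2H2AA3, 0.05 (SE 0.29) for HIST3H2A and -0.06 (SE 0.22) for HIST1H2AC. For HIST1H2BD it was 0.35 (SE 0.41), for HIST2H4A 0.26 (SE 0.26), for HIST1H4J 0.14 (SE 0.45) and for HIST1H4H 0.15 (SE 0.70). HIST1H1B, HIST1H1E, HIST2H3D and HIST1H3F had too few counts for a test.

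The largest values below 0 belonged to genes that share sequence with a near-identical copy, and they shrank when the copies were summed in CPM. HIST2H4B, HIST2H2AA4, HIST2H3A and HIST2H3C were chosen after their values were seen. HIST2H4B had 3.56 and 38.8 counts in control cells and 0 and 10.4 counts in CBX7 cells, and a log2 fold change of -2.16 (SE 1.42, adjusted p = 0.951, edgeR; adjusted p = 0.0306 when genes with few counts were kept). HIST2H4A and HIST2H4B, which share a 610-base model without a difference, together had 101 and 99 counts in control cells and 106 and 97 in CBX7 cells, a log2 ratio of -0.04 in CPM. The share of these counts assigned to HIST2H4B was 3.53% and 39.2% in control cells against 0% and 10.7% in CBX7 cells. In counts the sum was thus nearly equal in all libraries, while its division between the copies was not. On the TPM scale it was 10.1 and 11.6 TPM in control cells against 9.40 and 7.86 TPM with CBX7, lower in both CBX7 libraries.

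HIST2H2AA4 showed the same pattern more weakly. It had 30.0 and 13.5 counts in control cells and 10.2 and 8.69 counts in CBX7 cells, and a log2 fold change of -1.20 (SE 0.50, unadjusted p = 0.0554 and adjusted p = 0.951, edgeR). HIST2H2AA3 and HIST2H2AA4 together had 80.9 and 61 counts in control cells and 78 and 52 in CBX7 cells, a log2 ratio of -0.18 in CPM, with overlapping groups. On the TPM scale their sum was 14.75 and 13.0 TPM in control cells against 11.4 and 10.7 TPM with CBX7, without overlap. HIST2H3A and HIST2H3C, which share a 1656-base model, carried identical values in every library, at 13, 12.5, 16.75 and 12.5 counts each. Values of single copies are therefore uncertain, and 22 of the 70 replication-dependent genes had counts that were not whole in at least 1 library.

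**Figure D5:**
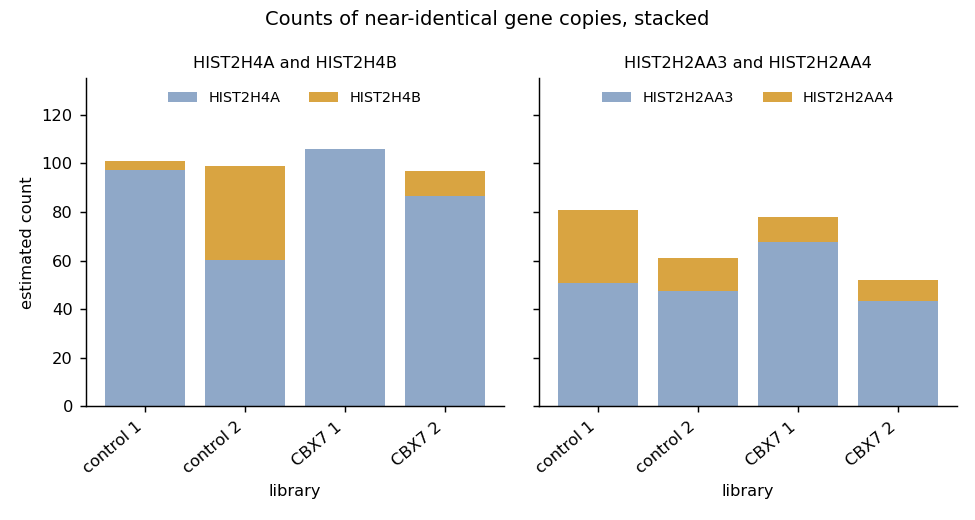
Estimated counts of HIST2H4A with HIST2H4B and of HIST2H2AA3 with HIST2H2AA4, stacked, in each library. The stacked height of the H4 pair lies between 97 and 106 counts in all libraries, whereas the HIST2H4B part runs from 0 to 38.8 counts.

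Set side by side, the median changes of replication-dependent and variant genes differed by less than the spread between replicates. The median log2 fold change was 0.15 over the 23 tested replication-dependent genes and 0.16 over the 10 variant genes, beside 0.0017 over all genes tested, and the classes differed by -0.0071. The pooled SD between replicates of the median level was 0.17 and 0.20 for these classes on the log2 scale, and the difference itself was not tested. After the length correction the medians were -0.046 and -0.016. Without CBX7 replicate 1 they were -0.14 and -0.064, and without CBX7 replicate 2 they were 0.33 and 0.34. The sign of both medians thus depended on CBX7 replicate 1, whereas their difference stayed between -0.079 and 0.012 under every alternative run. In summed TPM, the log2 ratio of the group means was 0.02 for the replication-dependent genes and 0.08 for the variant genes.

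The genes that make and process histone mRNA showed no change past the threshold in the reported fit. The list held 23 genes, all tested, with a median log2 fold change of 0.02. Of them edgeR called 0 at an adjusted and 0 at an unadjusted p under 0.05, against 0.0202% and 4.74% of all genes. The value was above 0 in 12 and below 0 in 11, where 50.3% of all genes lay above 0. SLBP, which binds the stem-loop, had 103.7 and 103.5 TPM in control cells and 99.7 and 101.1 TPM in CBX7 cells, with a log2 fold change of 0.08 (SE 0.15) in counts. NPAT, the coactivator of histone gene clusters, had 7.71 and 10.4 TPM in control cells and 6.65 and 8.56 TPM in CBX7 cells (log2 fold change -0.17, SE 0.21). CASP8AP2, a component of the bodies in which histone genes are transcribed, had 4.69 and 6.38 TPM against 2.78 and 5.81 TPM (log2 fold change -0.30, SE 0.27), and LSM11, a subunit of the particle that cleaves histone mRNA, had 3.24 and 3.60 TPM against 1.71 and 3.11 TPM (log2 fold change -0.44, SE 0.21, adjusted p = 0.951, edgeR). CBX7 replicate 1 was the lowest library for NPAT, CASP8AP2 and LSM11, and among SLBP, NPAT, CASP8AP2 and LSM11 both CBX7 libraries lay below both control libraries for SLBP and LSM11 in TPM, but in CPM for LSM11 alone. After the length correction LSM11 was at -0.32, with an unadjusted p under 0.05 (adjusted p = 0.645, edgeR).

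Histone chaperones and S phase genes were measured at high counts and did not pass the threshold in the reported fit either. Of 23 genes for chaperones and deposition, 0 had an adjusted p and 0 an unadjusted p under 0.05 in edgeR, with 13 above and 10 below 0 and a median of 0.03. The shares over all genes were 0.0202% and 4.74% for these thresholds and 50.3% for values above 0. ASF1B, which carries newly made H3 and H4, had 54.7 and 51.7 TPM in control cells and 50.6 and 55.9 TPM in CBX7 cells, and CHAF1B, a subunit of the assembly factor that works at replication forks, 17.6 and 18.1 TPM against 16.4 and 18.45 TPM. HIRA, which deposits the replacement H3, had 24.1 and 23.6 TPM in control cells and 20.85 and 24.5 TPM in CBX7 cells. The CBX7 libraries lay on both sides of the control libraries for ASF1B, CHAF1B and HIRA. Of 18 S phase genes, 0 passed either threshold, with 12 above and 6 below 0 and a median of 0.02, beside the same shares over all genes. Their summed level was 2313 and 2350 TPM in control cells and 2095 and 2384 TPM in CBX7 cells. After the length correction GINS2, a replication factor gene outside the rule for named genes, was at 0.35 with an unadjusted p under 0.05 (adjusted p = 0.561, edgeR), and no chaperone gene had one.

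Other RNAs that carry no poly(A) tail were mostly absent or low, apart from a few. The labels state total RNA and random primers, and whether poly(A) RNA was selected is not given in the sources used here. Of 17 RNAs without a tail, 8 (spliceosomal RNAs and a vault RNA) were at 0 in every library, and only 5 had enough counts for a test. The 8 at 0 have deposited lengths of 99 to 191 bases and the 5 tested of 264 to 333 bases, and the part of length in their detection was not tested. The signal recognition particle RNA genes RN7SL1 and RN7SL2, named because they were the highest, held most of it, with RN7SL2 at 713 and 471 TPM in control cells and 800 and 802 TPM in CBX7 cells. The summed level of the list was 1256 and 927 TPM in control cells and 1569 and 1394 TPM in CBX7 cells, with no overlap of the groups. All 5 tested members were above 0, against 50.3% of all genes, and 3 of them had an unadjusted p under 0.05, against 4.74% of all genes. After the length correction RN7SL1 alone of the 3 remained under it, with an adjusted p = 0.374 in edgeR. None passed after adjustment (lowest adjusted p = 0.951, edgeR), with a median log2 fold change of 0.79, and 0.46 after the length correction. The replication-dependent histone genes, which share the lack of a tail in their usual form, had a median of 0.15 in the same libraries, and the part of RNA selection in either value was not tested.

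The pseudogenes and the histone genes outside the rule added little RNA. Of the 19 pseudogenes 14 were at 0 in every library, and their summed level was 5.90 and 10.1 TPM in control cells and 6.10 and 11.4 TPM in CBX7 cells, higher in replicate 2 of each group. Of 11 histone genes outside the rule, 5 were at 0 in every library and 2 were tested. CENPA, which encodes the H3 variant of centromeres, had 55.9 and 53.7 TPM in control cells and 50.9 and 52.6 TPM in CBX7 cells. Its log2 fold change was 0.04 (SE 0.15) in counts, and it stood between H1FX and H2AFY2 in level.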

How the data were processed

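RNA of 2 control and 2 CBX7-overexpressing T24 libraries was analysed from one deposited table. For each gene and library the authors deposited an estimated count (88.2% to 88.9% of values whole to 2 decimals) and a TPM value, besides gene length, pooled mean TPM, and their own fold, log2 fold change, p-value, adjusted p-value and direction, which were not used. The submitters' processing notes name cutadapt 1.9.1, HISAT2 2.0.1, HTSeq 0.6.1, DESeq2 and genome build hg19. The tool behind the counts that are not whole, any strand setting and the annotation are not given in the sources used here. Gene models, coordinates and stem-loops came from GENCODE release 29 on GRCh38, in which 97 of the 99 genes were found by identifier. That build differs from the one in the notes.

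Counts were rounded. After filterByExpr and TMM scaling, edgeR 4.0.16 (R 4.3.3) was run with glmQLFit and glmQLFTest, with Benjamini-Hochberg adjustment over 14862 genes and a threshold of 0.05. Intervals are 95% intervals of that fit. CPM values are TMM-normalized. The length correction subtracts each library's trend with gene length, fitted on genes other than histone genes whose mean reached 100 counts. limma 3.58.1 (log2 of TPM with a pseudocount of 1 or 0.1) and DESeq2 1.42.0 were alternatives, as were the size factors of DESeq2, upper-quartile normalization, the newer quasi-likelihood method, no filter or a minimum of 10 counts, a replicate block and each library left out. Summing near-identical copies was chosen after seeing the data. The fit was run on simulated data with 14634 genes tested, 200 of them changed by 1.5 on the log2 scale, and the same dispersion of 0.02 for every gene. It called 186 of the 200 and 8 other genes. The simulated libraries had no length trend and no outlying library, so the outcome does not show how the fit performs on the real ones. The total counts were 23626206 and 20800910 in control and 25135488 and 21961166 in CBX7 libraries. The chi-square per degree of freedom between replicates was 6.06 and 54.7, so no library was a copy of another.

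The genes and lists were chosen with earlier results of these data known. Named were CBX7, the variant genes, the 3 replication-dependent genes of highest mean TPM in each family among those annotated as coding in GENCODE 29 (which passed over HIST1H3B), any histone gene past the threshold, the 3 largest rises and falls among tested histone genes averaging 50 or more counts without overlap of the groups, and 8 genes of the lists (SLBP, NPAT, CASP8AP2, LSM11, ASF1B, CHAF1B, HIRA, CENPA). Lists are described by counts and medians, without a test.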

Additional observations from a re-analysis of the deposited data

How the results depend on the processing

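The overexpressed gene CBX7 kept its direction and its call under all alternatives run (log2 fold change 6.84 to 7.44). Genes past an adjusted p of 0.05 numbered 3, but 67 by the Wald test of DESeq2, 265 when low counts were not filtered, 361 with a replicate block, 280 with a replicate block and length correction, and 45 to 5491 with a library left out. Histone genes past it numbered 0, but 1 without the filter and 1 under the replicate block, in both cases HIST2H4B (adjusted p = 0.0306 and 0.0369 in edgeR), and 0 to 9 with a library left out. The 9, without CBX7 replicate 2, where 35.5% of all genes passed, were 7 variant genes, HIST2H4B and the pseudogene HIST2H2BD, and without control replicate 1 the call was HIST2H4B. In these fits the prior degrees of freedom were 3.61 in the reported fit and infinite with the block or no filter. The replicate numbers are not stated to pair the libraries. Deviations of same-numbered libraries correlated at 0.31 over 14862 genes and at 0.61 over the 11077 averaging 100 or more counts, with 2 pairs only. The cause of these shifts was not tested.

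The median log2 fold change of the replication-dependent genes (0.15) was -0.046 with the length correction, -0.057 with the block and length correction, -0.028 and -0.048 in limma on log2(TPM + 1) and log2(TPM + 0.1), and -0.14 to 0.33 with a library left out. That of the variant genes (0.16) was -0.064 to 0.34 with a library left out. The median over all genes was -0.081 and -0.10 on the log2 TPM scales.

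Over 29 genes followed under up to 15 alternatives (HIST1H2BC, HIST1H3H and HIST1H4H dropped out with a minimum of 10 counts), direction and side of the threshold were kept in 352 values, the direction turned in 70 and the threshold was newly passed in 10. With the length correction, and then with block and length correction, these turned to H2AFY -0.0023 and -0.0026, H1FX -0.034 and -0.041, H2AFV -0.055 and -0.060, H3F3A -0.0061 and -0.0059, H2AFZ -0.027 and -0.027, H2AFJ -0.030 and -0.030, HIST2H2AA3 -0.14 and -0.14, HIST3H2A -0.12 and -0.12, HIST1H4J -0.15 and -0.16, HIST1H4H -0.046 and -0.12, SLBP -0.029 and -0.029, CENPA -0.087 and -0.088, and HIST1H1C -0.015 with the length correction. In limma on log2(TPM + 1) and log2(TPM + 0.1) they turned to H2AFY -0.069 and -0.069, H1FX -0.045 and -0.046, HIST2H2AA3 -0.051 and -0.056, HIST3H2A -0.043 and -0.048, HIST2H4A -0.22 and -0.25, HIST1H4J -0.043 and -0.048, SLBP -0.045 and -0.046, ASF1B -0.00075 and -0.00078, CHAF1B -0.033 and -0.035, HIRA -0.075 and -0.078, and CENPA -0.082 and -0.083.

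With each library left out in turn, turned values ranged from -0.72 to 0.042 for CASP8AP2, -0.45 to 0.064 for NPAT, -0.083 to 0.15 for CENPA, -0.0092 to 0.15 for CHAF1B, -0.032 to 0.083 for HIRA, -0.079 to 0.22 for SLBP, -0.24 to 0.37 for H1FX, -0.10 to 0.40 for H2AFJ, -0.079 to 0.42 for H2AFX, -0.050 to 0.088 for H2AFY, -0.078 to 0.37 for H2AFZ, -0.034 to 0.31 for H3F3A, -0.23 to 0.82 for HIST1H1C, -0.14 to 0.0073 for HIST1H2AC, -0.18 to 0.73 for HIST1H2BD, -0.67 to 0.93 for HIST1H4H, -0.28 to 0.46 for HIST1H4J, -0.19 to 0.35 for HIST2H2AA3 and -0.19 to 0.34 for HIST3H2A. In all, 47 of 70 replication-dependent genes had too few counts for a test at these totals, and the reason was not tested.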
